A study of Sus scrofa with 22 samples.

Results

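Glucocorticoid signalling was examined in piglet cerebellum after bile duct ligation through 10 genes, namely NR3C1, HSD11B1, FKBP5, TSC22D3, ZBTB16, KLF9, CEBPD, SGK1, ERRFI1 and DDIT4. They were chosen by name, as the receptor, an enzyme that makes its ligand and 8 genes known as responsive to it. Earlier results of these data were known when the genes were chosen. Of these 10 genes, 9 had a row among the 31907 identifiers of the count tables, and all 9 passed the count filter that 14994 genes passed in all. The pig Ensembl identifier of TSC22D3 (GILZ, an anti-inflammatory leucine zipper protein) matched no row, so TSC22D3 was not analysed here.

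Glucocorticoids (cortisol in pigs) cross into the brain and bind the glucocorticoid receptor, which waits in the cytoplasm in a complex with HSP90 and immunophilins. Bound receptor moves into the nucleus and switches target genes on or off. FKBP5, ZBTB16, KLF9, SGK1 and PER1 are among the targets most often used as readouts of receptor activity. Cortisol secretion has a daily rhythm, and part of the clock machinery, PER1 in particular, is itself a receptor target. Obstructed bile flow raises bile acids in blood, and bile acids can act on the adrenal axis and on the receptor.

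The tissue came from 22 piglets (Sus scrofa). In 11 of them the bile duct was tied on day 8 of life (BDL), and the other 11 had sham surgery on the same day (SHAM). All were followed for 3 weeks, so both groups had been through an operation. The BDL group held 7 females and 4 males, the SHAM group 5 females and 6 males. Each title carries an animal number between 400 and 421. The sources used here do not say what that number stands for, at what hour the tissue was taken, what the cortisol level was or which animals were littermates. Numbers 400 to 410 held 6 BDL and 5 SHAM animals, and numbers 411 to 421 held 5 BDL and 6 SHAM animals. In the earlier range the BDL animals mostly had the lower numbers (BDL mean 403.5), and in the later range mostly the higher ones (BDL mean 417.2). Treatment estimates within a range had no number term, so treatment and number are not separated there. Replicate numbers in the text follow the order of deposition. Nothing in the labels ties 1 animal to another, and p-values are for the spread between these animals.

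Libraries held between 14811464 and 20046909 gene counts. Levels are given as CPM, each gene's share of its library's gene counts put on a common scale after TMM scaling. Transcript lengths were not at hand, so no amount of transcript is compared between genes. Where genes are matched by CPM or compared by counts, this concerns reads only. The spans of FKBP5, ZBTB16, HSD11B1 and NR3C1 overlap other genes in the RefSeq annotation, and without a stated strand setting reads there cannot be told apart. Summed markers of cerebellar granule neurons ran from 4336 to 5447 CPM and those of Purkinje cells from 2140 to 3383 CPM, so the defining neurons of the labelled tissue were present in every library. Fewer cells of a type and less RNA per cell cannot be told apart in such bulk samples.

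None of the 9 measured genes passed the test of BDL against SHAM, edgeR's quasi-likelihood test with sex in the model and Benjamini-Hochberg adjustment over 14994 genes. The background was as low: 0 of all genes passed, which is 0%. At an unadjusted p under 0.05 edgeR gave 744 genes (4.96%) and 2 of the 9, ZBTB16 and NR3C1. At the same threshold limma-voom gave 743 genes (4.96%) and 1 of the 9, a gene lower in BDL and so not ZBTB16. DESeq2 gave 769 genes (5.13%) and 2 of the 9. With each animal left out in turn, ZBTB16 had an unadjusted p under 0.05 in 9 of 22 edgeR fits and NR3C1 in 16 of 22. At the adjusted threshold limma-voom called 0 genes (0%) and DESeq2 1 gene (0.00667%), none of the 9. In BDL 4 of the 9 estimates lay above SHAM and 5 below, with a median log2 change of -0.01, beside 0.00061 over all genes. The estimates were also narrow: for 8 of the 9 genes the 95% confidence interval stayed within a 1.5-fold difference in either direction, as for 87.1% of all genes, and for ZBTB16 it did not.

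**Figure D1:**
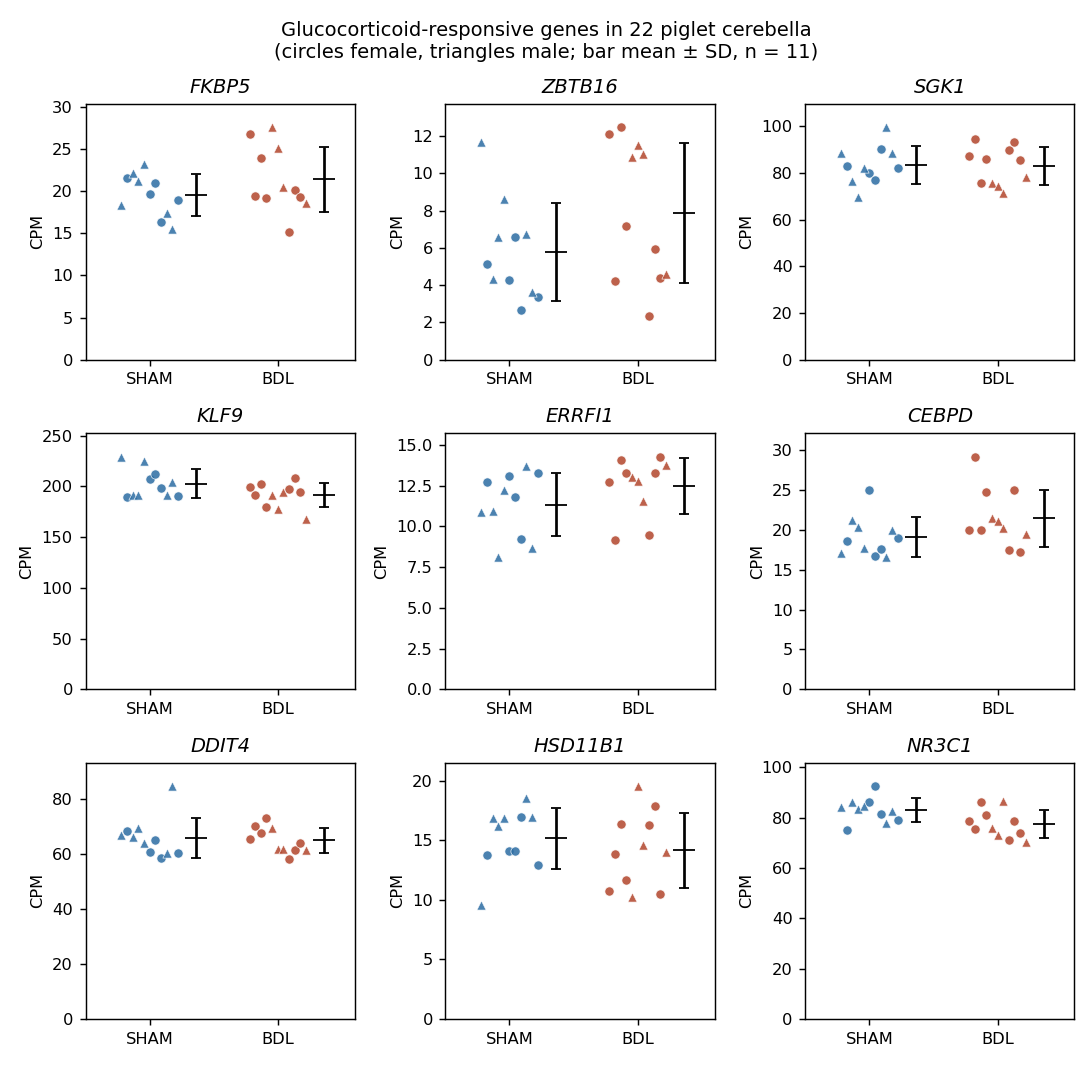
Level of each of the 9 measured genes in CPM (vertical axes) in BDL and SHAM animals, 1 point per animal and 11 animals per group. The 2 groups overlap in every panel, and ZBTB16 has the widest spread for its level.

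NR3C1, the glucocorticoid receptor itself (chromosome 2, 144822937 to 144956451, Sscrofa11.1), ran from 70.3 over a median of 75.7 to 86.7 CPM in BDL, and from 74.9 over 83.6 to 92.5 CPM in SHAM. The BDL mean was 77.3 ± 5.54 CPM (SD, n = 11) and the SHAM mean 83.0 ± 4.76 CPM (SD, n = 11). Of the BDL animals 9 of 11 lay below the SHAM mean and 4 lay below every SHAM animal, while the ranges overlapped. The log2 fold change was -0.10 ± 0.05 (SE), with an interval from -0.20 to -0.01, p = 0.0299 and adjusted p = 0.881 in edgeR. With the animal number in the model it was -0.11 ± 0.04. Without the number in the model it was -0.09 within numbers 400 to 410 and -0.13 within 411 to 421.

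HSD11B1 codes for the enzyme that turns inactive cortisone back into cortisol inside cells (chromosome 9, 133231451 to 133278396). Its level was 10.22, 14.04 and 19.54 CPM at the lowest, median and highest BDL animal, and 9.53, 16.2 and 18.5 CPM in SHAM. The groups covered nearly the same range. The log2 fold change was -0.08 ± 0.12, with an interval from -0.33 to 0.17 and an adjusted p of 0.933 in edgeR.

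FKBP5 codes for the immunophilin that lowers the receptor's affinity for its ligand, and as a receptor target it closes a short feedback loop (chromosome 7, 31441764 to 31550704). In BDL it ran from 15.1 over 20.1 to 27.6 CPM and in SHAM from 15.5 over 19.7 to 23.2 CPM. Of the 11 BDL animals 4 stood above every SHAM animal and 1 below every SHAM animal. The log2 fold change was 0.14 ± 0.09, p = 0.136 and adjusted p = 0.881 in edgeR. With the animal number in the model it was 0.10 ± 0.08. Without the number in the model it was 0.21 within numbers 400 to 410 and 0.05 within 411 to 421.

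ZBTB16 codes for a zinc finger transcription repressor (PLZF) whose promoter responds strongly to glucocorticoids in many tissues (chromosome 9, 41639536 to 41839254). It ran from 2.34 over 7.15 to 12.5 CPM in BDL and from 2.67 over 5.15 to 11.7 CPM in SHAM. Both groups spanned almost the whole range, and 7 of 11 BDL animals were above the SHAM mean. The log2 fold change was 0.57 ± 0.27, with an interval from 0.017 to 1.121, p = 0.0439 and adjusted p = 0.881 in edgeR. With the animal number in the model it was 0.41 ± 0.20 (p = 0.0518). Without the number in the model it was 0.62 ± 0.33 within numbers 400 to 410 and 0.23 ± 0.33 within 411 to 421, where BDL and SHAM also differed in number. Across all animals its highest level was 5.34 times its lowest, and its coefficient of variation of 49.1% was above that of 97.0% of 2884 genes of similar level. ZBTB16 counts were 41 to 228 per library.

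KLF9, a Krüppel-like factor induced by glucocorticoid and thyroid hormone in neurons (chromosome 1, 223723613 to 223747661), ran from 168 over 194 to 208 CPM in BDL and from 189 over 199 to 229 CPM in SHAM. Of the BDL animals 10 of 11 were below the SHAM mean, and 3 were below every SHAM animal. Its log2 fold change was -0.09 ± 0.05, p = 0.0624 and adjusted p = 0.881 in edgeR. CEBPD, a factor of the acute phase response (chromosome 4, 79872863 to 79874481), ran from 17.2 over 20.2 to 29.2 CPM in BDL and from 16.5 over 18.6 to 24.9 CPM in SHAM. BDL replicate 2 alone stood above every SHAM animal, and 9 of 11 BDL animals were above the SHAM mean. The log2 fold change of CEBPD was 0.16 ± 0.09, p = 0.0893 and adjusted p = 0.881 in edgeR, and 0.11 without that animal.

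The last 3 of the 9 genes act in signalling. SGK1, a kinase of ion transport and myelin biology (chromosome 1, 29625786 to 29753619), ran from 71.4 over 85.6 to 94.6 CPM in BDL and from 69.7 over 82.1 to 99.8 CPM in SHAM, a log2 fold change of -0.03 ± 0.06. ERRFI1, an inhibitor of EGF receptor signalling (chromosome 6, 68667651 to 68682629), ran from 9.15 over 13.0 to 14.3 CPM in BDL and from 8.11 over 11.8 to 13.7 CPM in SHAM, a log2 fold change of 0.13 ± 0.10. DDIT4 (REDD1), a stress-induced inhibitor of mTORC1 (chromosome 14, 75117708 to 75119907), ran from 58.3 over 64.2 to 73.2 CPM in BDL and from 58.6 over 65.3 to 84.9 CPM in SHAM, a log2 fold change of -0.01 ± 0.06. For SGK1 and DDIT4 the groups overlapped but for 1 animal at either end. For ERRFI1 they overlapped less, with 9 of 11 BDL animals above the SHAM mean, 3 of them above every SHAM animal, and 2 SHAM animals below every BDL animal. The adjusted p in edgeR was 0.952 for SGK1, 0.881 for ERRFI1 and 0.984 for DDIT4.

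**Figure D2:**
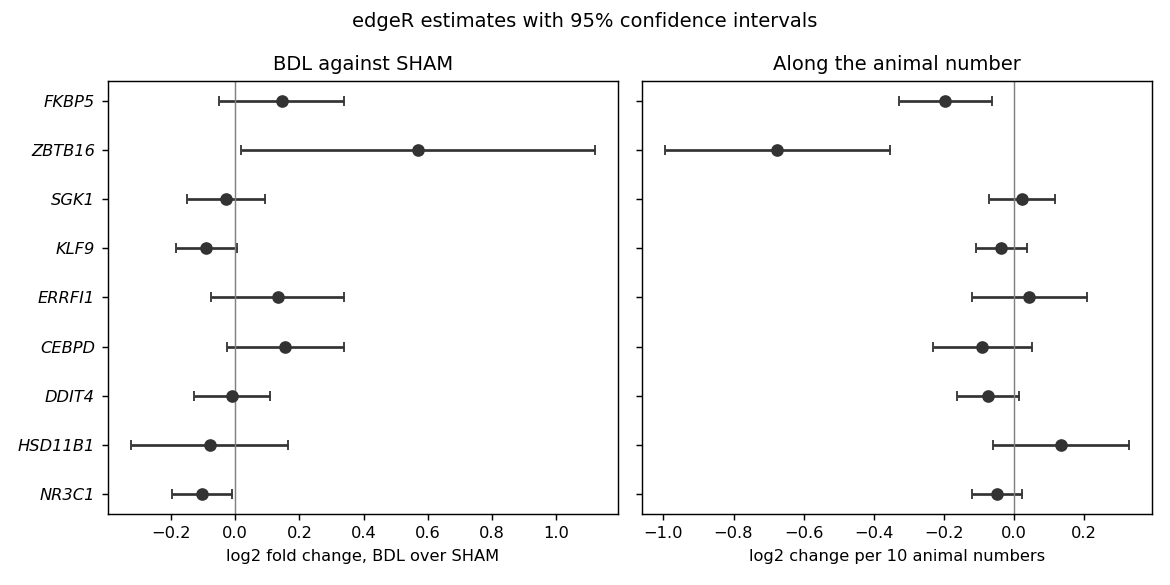
edgeR estimates (points) with 95% confidence intervals (bars) for the 9 genes, left as log2 fold change of BDL over SHAM and right as log2 change per 10 animal numbers. On the right, the intervals of FKBP5 and ZBTB16 lie wholly below 0.

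The same 9 genes were then followed along the animal number. With sex and treatment in the model, edgeR called 11 of 14994 genes (0.0734%) and 0 of the 9. At an unadjusted p under 0.05 there were 1497 genes (9.98%), and 2 of the 9, FKBP5 and ZBTB16, both lower at higher numbers, a direction that held 4.93% of all genes. limma-voom called 11 genes (0.0734%) and 0 of the 9, with 1452 genes (9.68%) and 2 of the 9 at an unadjusted p under 0.05. DESeq2 called 55 genes (0.367%), and ZBTB16 was 1 of them. The edgeR count of 11 moved with single animals. Leaving out animal 400 (BDL replicate 1) gave 1 gene, animal 417 (BDL replicate 8) 3 genes and animal 419 (BDL replicate 10) 6 genes. Leaving out animal 406 (SHAM replicate 2) or animal 407 (BDL replicate 6) gave 7 genes, and animal 402 (BDL replicate 2) gave 33.

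ZBTB16 ran from 4.22 over 8.62 to 12.5 CPM in numbers 400 to 410 and from 2.34 over 4.405 to 11.05 CPM in numbers 411 to 421. Of the later animals 10 of 11 lay below the mean of the earlier ones, and the exception was BDL replicate 7, animal 411. The log2 change per 10 numbers was -0.67 ± 0.16, p = 0.000229 and adjusted p = 0.131 in edgeR. In DESeq2 the adjusted p was 0.00747 for the same slope, and in edgeR without BDL replicate 2, animal 402, the slope was -0.76 with an adjusted p of 0.0264. Over all alternatives, single animals left out included, its adjusted p ran from 0.00747 to 0.763. The slope was -0.70 in BDL and -0.62 in SHAM, and the test of that difference gave an edgeR adjusted p of 0.9996.

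FKBP5 ran from 18.3 over 22.1 to 27.6 CPM in numbers 400 to 410 and from 15.1 over 18.9 to 20.9 CPM in numbers 411 to 421. All 11 later animals were below the earlier mean, and 8 of the 11 earlier animals were above every later one. The log2 change per 10 numbers was -0.20 ± 0.06, p = 0.00586 and adjusted p = 0.309 in edgeR, and over all alternatives the adjusted p ran from 0.138 to 0.998. Its slope was -0.22 in BDL and -0.13 in SHAM, a difference that edgeR did not call (adjusted p = 0.9996).

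**Figure D3:**
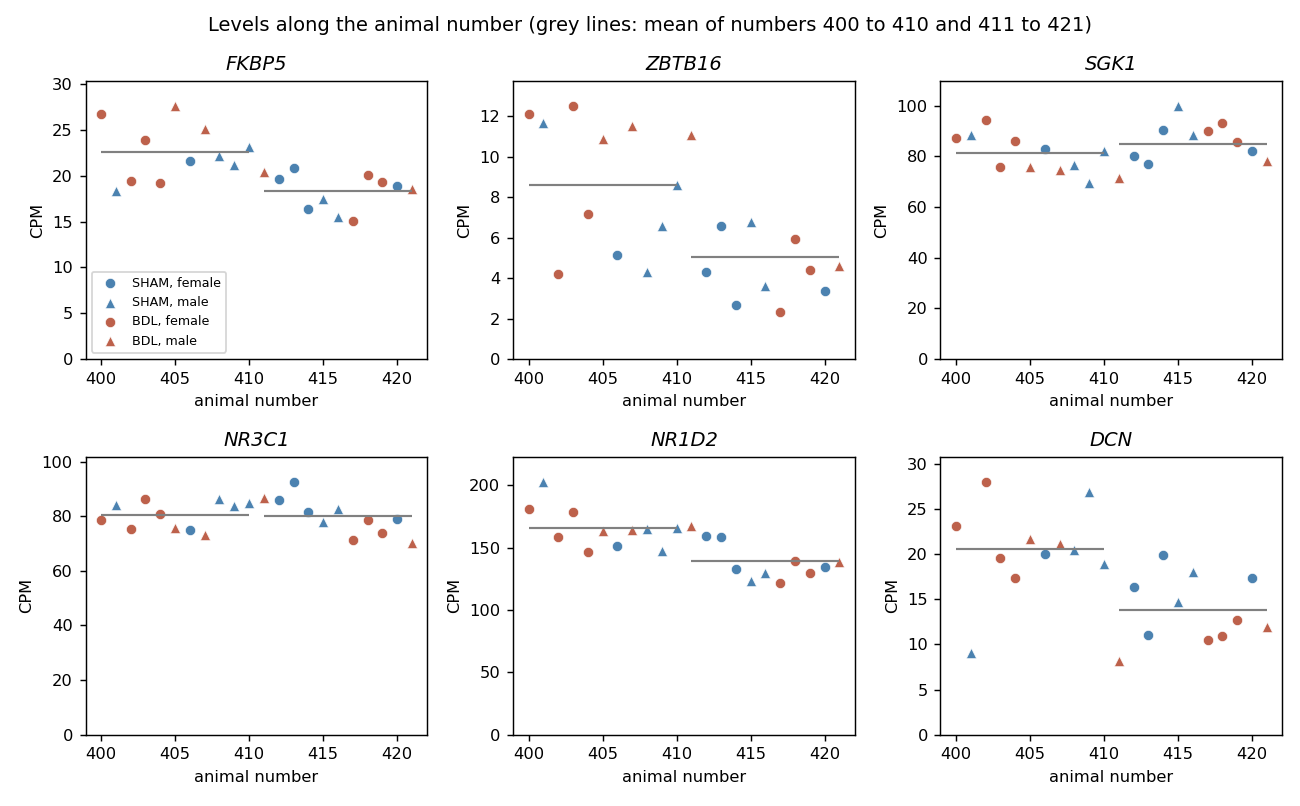
Level in CPM (vertical axes) of FKBP5, ZBTB16, SGK1, NR3C1, the clock gene NR1D2 and the fibroblast marker DCN against the animal number (horizontal axes), 1 point per animal, BDL and SHAM in 2 colours, females as circles and males as triangles, with grey lines at the mean of each range of numbers. The later mean is lower for FKBP5, ZBTB16, NR1D2 and DCN, and close to the earlier one for SGK1 and NR3C1.

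The other 7 genes had slopes between -0.09 (CEBPD) and 0.13 (HSD11B1) per 10 numbers, and none had an unadjusted p under 0.05. For DDIT4, 10 of 11 later animals lay below the earlier mean, with a slope of -0.07 ± 0.04 (p = 0.102, edgeR). For treatment by animal number, edgeR called 0 of 14994 genes (0%), with 624 genes (4.16%) and 0 of the 9 at an unadjusted p under 0.05. DESeq2 called 1 gene (0.00667%) and limma-voom 0 (0%), none of the 9.

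Markers of the coverings and vessels of the brain had slopes in the same direction as FKBP5 and ZBTB16. Of all genes 4.93% were lower at higher numbers at an unadjusted p under 0.05. All 5 meningeal fibroblast markers were lower at higher numbers, 4 of them at that threshold. Their summed level was 239 to 487 CPM (median 425) in numbers 400 to 410 and 192 to 350 CPM (median 241) in 411 to 421. The defining markers DCN and LUM were above 0 in every library, DCN with 126 to 487 counts and LUM with 115 to 507 counts. Of 6 endothelial markers 4 were lower, 3 at an unadjusted p under 0.05, with sums of 162 to 234 and 134 to 208 CPM. CLDN5 had a slope of 0.01 and PECAM1 of -0.17. Of 5 mural markers 4 were lower, 1 at an unadjusted p under 0.05, and all 3 choroid plexus markers had negative slopes, 0 at that threshold. The summed choroid plexus markers were 3.998 to 1459 CPM (median 62.1) in numbers 400 to 410 and 13.6 to 893 CPM (median 66.9) in 411 to 421, so the later median was not the lower one. Glial markers mostly had slopes in the other direction, positive for all 6 oligodendrocyte, all 6 microglia and 4 of 5 astrocyte and Bergmann glia markers. The medians of their sums did not all follow. From numbers 400 to 410 to numbers 411 to 421 the median went from 14324 to 15023 CPM for oligodendrocyte markers. It went from 144 to 139 CPM for microglia and from 5764 to 5650 CPM for astrocyte and Bergmann glia markers. Of 7 granule neuron markers 4 had positive slopes, of 5 Purkinje cell markers 2, and of 3 blood cell markers 0. None of these glial, neuron and blood cell markers had an unadjusted p under 0.05 for the slope. These slopes pool BDL and SHAM. In the test of treatment by animal number, some markers had a lower slope in BDL at an unadjusted p under 0.05. They were all 3 choroid plexus, 4 of 6 oligodendrocyte, 2 of 5 mural and 1 of 5 meningeal fibroblast markers. Of all genes 2.75% were lower at that threshold, and 0 genes passed edgeR's adjusted threshold. The part of any of these cell types in the slopes of FKBP5 and ZBTB16 was not tested.

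Clock genes were among those called along the number. Of 16 tested clock genes, 12 had a lower level at higher numbers and 4 a higher one, and 5 passed edgeR's adjusted threshold, which 0.0734% of all genes passed. Without animal 400 edgeR called 1 gene in all, so at most 1 of these 5 clock calls held without it. CIART, a repressor of the clock loop, fell by 0.68 per 10 numbers on the log2 scale (adjusted p = 0.000243), from a median of 12.6 CPM in numbers 400 to 410 to 8.50 CPM in 411 to 421. PER2 fell by 0.47 (adjusted p = 0.0194), NR1D1 fell by 0.58 (adjusted p = 0.037) and NR1D2 fell by 0.24 (adjusted p = 0.0194, edgeR). BMAL1, the activator that peaks in antiphase to them, rose by 0.29 (edgeR adjusted p = 0.00708). PER1, both a clock gene and a receptor target, had a slope of -0.26 ± 0.09 (p = 0.00923, edgeR adjusted p = 0.361). The sampling hour is not given, and its part in the slopes of FKBP5 and ZBTB16 was not tested.

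Over the 22 animals, 1 of 36 pairs among the 9 genes passed by Pearson's r. The share of passing pairs among all genes was not worked out, so this count has no background beside it. FKBP5 and ZBTB16 correlated with r = 0.73 (Benjamini-Hochberg adjusted p = 0.00504, permutation test, 100000 resamples, two-sided) and Spearman's rho = 0.62 (adjusted p = 0.0455). Without the 2 animals farthest from the median of FKBP5, r was 0.67. It was 0.49 within numbers 400 to 410, 0.71 within 411 to 421, 0.88 in BDL and 0.40 in SHAM. After sex, treatment and animal number were taken out, r was 0.55 and the pair no longer passed (adjusted p = 0.0742, permutation test). On those residuals the pair that passed by Pearson was ZBTB16 and ERRFI1, with r = 0.66 (adjusted p = 0.0385, permutation test). For that pair Spearman's rho was 0.44 (adjusted p = 0.256, permutation test), and r was 0.45 without the 2 farthest animals. The permutations treated residuals as free values and did not allow for the terms taken out. The p-values on residuals therefore lean too small, and the Pearson call of ZBTB16 and ERRFI1 rests on them.

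FKBP5 and SGK1, both receptor targets, had r = -0.53 (adjusted p = 0.144) and rho = -0.63 (adjusted p = 0.0455, permutation test). On residuals from sex, treatment and animal number this pair did not pass. There r was -0.55 (adjusted p = 0.0742) and rho was -0.46 (adjusted p = 0.256, permutation test). NR3C1 and KLF9 had r = 0.59 (adjusted p = 0.0634, permutation test). The median r of all 36 pairs was near 0, at -0.0039, with 17 positive and 19 negative, and the median over pairs of other genes was not worked out.

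**Figure D4:**
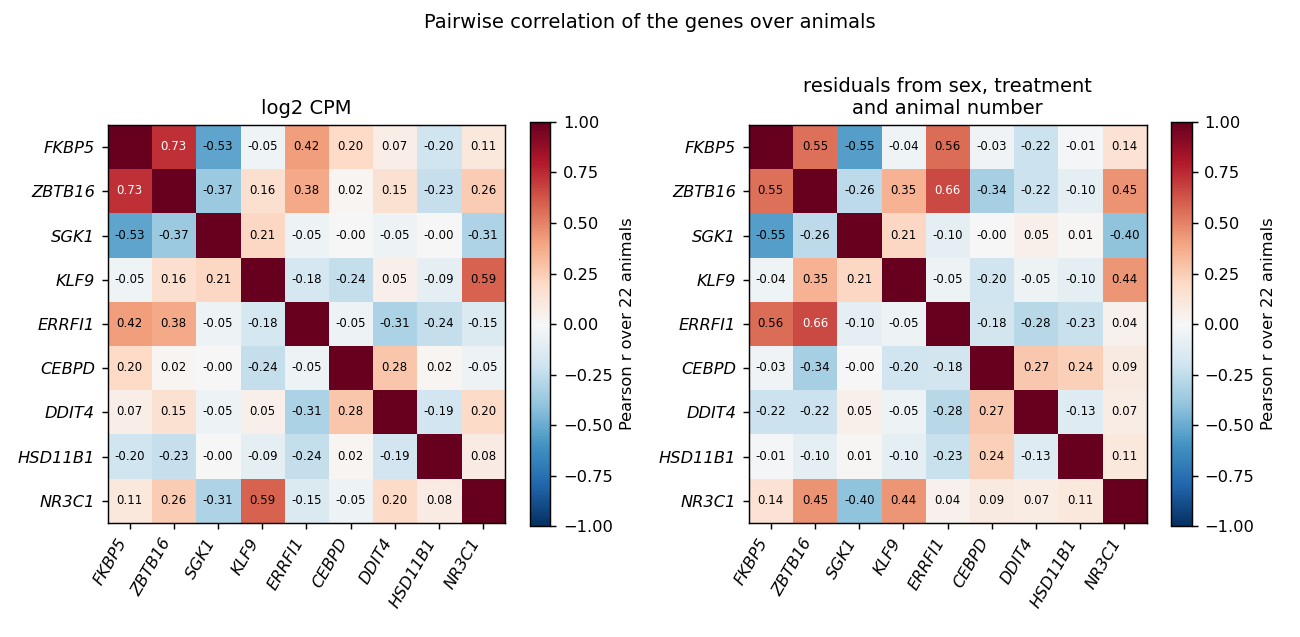
Pearson's r for every pair of the 9 genes over 22 animals, left on log2 CPM and right on residuals from sex, treatment and animal number, with colour from -1 (blue) to 1 (red). FKBP5 and ZBTB16 share the strongest pair on the left (0.73) and ZBTB16 and ERRFI1 on the right (0.66).

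For each gene the 2 genes of most similar pattern were listed by r over the 22 animals, as a description, among 12308 genes with a symbol that leave out the 9 genes themselves. For FKBP5 they were TSPAN14 and KCNE4 (both r = 0.73), and for ZBTB16 the clock repressor NR1D2 (r = 0.75) and TMEM100 (r = 0.71). Counted in, FKBP5 and ZBTB16 would each stand second in the other's list. For SGK1 they were TACR1 (r = 0.79) and XRRA1 (r = 0.75), for KLF9 AP1G1 (r = 0.78) and WAC (r = 0.77), and for NR3C1 YTHDF3 and DUSP19 (both r = 0.79). DDIT4 was closest to CHAC1 (r = 0.73) and SESN2 (r = 0.70), which like DDIT4 are induced under cell stress. ERRFI1 was closest to DDR1 (r = 0.83) and PLK3 (r = 0.81), CEBPD to AP1M1 (r = 0.69) and LGALS8 (r = 0.66), and HSD11B1 to NDUFS4 (r = 0.82) and TM2D3 (r = 0.80).

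The wider receptor pathway was compared in the same fit of BDL against SHAM. Of 27 further receptor targets 20 were higher and 7 lower, with a median of 0.07, and 0 passed the adjusted test. Over all genes tested 7536 were higher and 7458 lower, with a median of 0.00061. Of the 27, 1 had an unadjusted p under 0.05, as 4.96% of all genes had, namely PER1, at 0.33 ± 0.14 (p = 0.0293, edgeR adjusted p = 0.881). PER1 ran from 108 over 138 to 221 CPM in BDL and from 83.7 over 105 to 185 CPM in SHAM, with overlap. KLF15, GPD1 and TSC22D4 had log2 changes of 0.12, 0.12 and 0.13, none under an unadjusted p of 0.05.

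Of 14 receptor partners and coregulators 4 were higher and 10 lower, 0 passed, and the coactivator NCOA3 and the corepressor NRIP1 (each -0.17 ± 0.07) had an unadjusted p under 0.05, at 0.0169 and 0.0258. HSP90AA1, a chaperone that every cell uses, is listed at 0 in all 22 libraries, so its row says nothing of its level. Of 4 hormone-handling genes 3 were higher and 1 lower, and 0 passed. HSD11B2, which inactivates cortisol, had a log2 change of 0.31 ± 0.25 on levels of 3.24 to 10.6 CPM in BDL and 2.72 to 12.5 CPM in SHAM. Of 8 immediate early genes 6 were higher and 2 lower, with a median of 0.22, and 0 passed. At an unadjusted p under 0.05, 1 of the 8 was higher, as 2.23% of all genes were.

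Along the animal number 12 of the 27 further targets were higher and 15 lower, 0 passing, with 5 lower and 1 higher at an unadjusted p under 0.05, where all genes had 4.93% lower and 5.06% higher. TXNIP (-0.22 ± 0.07), PER1, KLF4 (-0.32 ± 0.12) and ANGPTL4 (-0.39 ± 0.16) had the smallest p. Among partners, HSP90AB1 had -0.12 ± 0.05. All 4 hormone-handling genes were lower, HSD11B2 at -0.36 ± 0.18 (p = 0.0544), and 0 passed edgeR's adjusted test.

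Sex and weight were checked on the same 9 genes. For female against male, edgeR called 9 genes (0.06%) and 0 of the 9, and 892 genes (5.95%) and 0 of the 9 had an unadjusted p under 0.05. limma-voom called 10 genes (0.0667%) and DESeq2 23 (0.153%), none of the 9. At an unadjusted p under 0.05 limma-voom gave 6.14% and DESeq2 6.38% of all genes, and each gave 1 of the 9, ZBTB16. Of the 9, ZBTB16 had the largest difference, -0.55 ± 0.27 (p = 0.0508, edgeR). Its p was 0.0402 in limma-voom, 0.0495 in DESeq2 and 0.0162 in edgeR with the animal number added. For treatment by sex, edgeR called 0 genes (0%), limma-voom 0 (0%) and DESeq2 0 (0%), and at an unadjusted p under 0.05 edgeR gave 689 genes (4.6%) and 1 of the 9, SGK1. SGK1 was 71.4 to 78.1 CPM in the 4 BDL males and 69.7 to 99.8 CPM in the 6 SHAM males, and 75.8 to 94.6 CPM in the 7 BDL females and 76.9 to 90.4 CPM in the 5 SHAM females. The log2 fold change of SGK1 was -0.17 ± 0.08 in males and 0.08 ± 0.07 in females, a difference of 0.25 ± 0.11 (p = 0.0281, edgeR adjusted p = 0.917).

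For body weight, whose unit is not given, edgeR called 0 genes (0%), limma-voom 0 (0%) and DESeq2 8 (0.0534%), none of the 9. At an unadjusted p under 0.05 edgeR gave 1108 genes (7.39%) and 1 of the 9, CEBPD. CEBPD had a log2 change of -0.13 ± 0.04 per standard deviation of weight (p = 0.00249, edgeR adjusted p = 0.479). All 3 choroid plexus markers were also lower at higher weight, each at an unadjusted p under 0.05, with a median log2 change of -1.10, and their part in the CEBPD value was not tested. CEBPD was at 24.7 CPM at the lowest weight of 1620 (BDL replicate 4) and at 18.6 CPM at the highest of 2560 (SHAM replicate 2). Those animals differ in treatment as well as in weight. CEBPD against weight did not pass the adjusted test, and BDL against SHAM for CEBPD was 0.14 with weight in the model.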

How the data were processed

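Cerebellar RNA of 22 piglets was sequenced as 150 bp read pairs, per the labels' protocols. The authors deposited 1 table of raw read counts per gene and animal. The submitters' processing notes name Trim Galore, HISAT2, HTSeq, DESeq2 and the build Sscrofa11.1, with no versions, and the strand setting of the counting is unknown here. Lines that name no gene held 29.9% to 34.6% of the counts and were left out of library sizes and tests. No pair of libraries looked like 1 library deposited again: a chi-square comparison of gene counts gave at least 7.20 per degree of freedom in each of 231 pairs.

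Symbols and coordinates came from a RefSeq gene table of Sscrofa11.1, in which 15029 of 31907 identifiers had a symbol. Genes were kept with filterByExpr of edgeR 4.0.16 (R 4.3.3) with its minimum count at 10 and its total at 15 or more. Counts were scaled by TMM and fitted by the robust quasi-likelihood model, with sex as a covariate for treatment, sex and treatment for the animal number (per 10 numbers) and for weight, and a model of 4 groups for treatment by sex. A gene counted as called at a Benjamini-Hochberg adjusted p under 0.05 over all 14994 genes. limma-voom (limma 3.58.1), DESeq2 1.42.0, other scalings, no filter, other covariates, each sex, each range of numbers and each animal left out were alternatives. The edgeR fits were tested on simulated data with larger changes than those estimated for the 9 genes. That test does not cover changes as small as theirs. Correlations used log2 CPM with a prior count of 2 and 100000 permutations.

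The 10 genes, the pathway lists and the marker lists were chosen with earlier results of these data known. Other genes named are the up to 4 of smallest p in each list for treatment and for the animal number, PER1, the 2 genes most like each of the 9, and the first 2 markers of a described cell type. NR1D1 is named beside 4 other clock genes to make the 5 called along the number complete, and was chosen after its values were seen. A search of promoters for receptor motifs was planned and was not run, since promoter sequence was not at hand.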

Additional observations from a re-analysis of the deposited data

Results flagged for a closer look

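For each of the 9 genes the BDL and SHAM animals of either range of numbers, 36 groups of 5 or 6 animals in all, were examined for a lowest or highest animal far from the rest, and 3 values stood out. Chance alone flags about 1 in 20 groups. DDIT4 was 84.9 CPM in SHAM replicate 10 (animal 416), while the next highest of the 6 SHAM animals numbered 411 to 421 was at 65.3 CPM. Without that animal the BDL against SHAM estimate for DDIT4 was 0.02 instead of -0.01. ERRFI1 was 9.15 CPM in BDL replicate 2 (animal 402), while the next lowest of the 6 BDL animals numbered 400 to 410 was at 12.7 CPM. Without that animal the estimate for ERRFI1 was 0.17 instead of 0.13. NR3C1 was 74.9 CPM in SHAM replicate 2 (animal 406), while the next lowest of the 5 SHAM animals numbered 400 to 410 was at 83.6 CPM.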

How the results depend on the processing

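Of 729 values of the 9 genes under alternatives, 715 kept their direction and their side of the adjusted threshold. In 5 results 12 changed sign, and 2, both for the ZBTB16 slope along the number, newly passed. None of the 9 passed in a main fit, and many alternatives share most animals, so the count of 715 says little of stability. Leave-one-out fits aside, the BDL against SHAM estimate ran from 0.05 to 0.23 for FKBP5 and from 0.03 to 0.25 for ERRFI1. It ran from 0.23 to 0.66 for ZBTB16 and from -0.13 to -0.09 for NR3C1. For BDL against SHAM in females alone, SGK1 was 0.083 and DDIT4 0.068, and with each animal left out DDIT4 ran from -0.028 (without SHAM replicate 8) to 0.024 (without SHAM replicate 10). Along the number, KLF9 was 0.018 in females, and DDIT4 was 0.016 in males and 0.0057 in SHAM. For treatment by sex, ZBTB16 was -0.21 with the animal number added, against 0.20 without. Counts of genes called by DESeq2 were 1 for BDL against SHAM, 55 along the number, 1 for treatment by number, 23 for sex and 8 for weight. Along the number edgeR called 0 in females alone and 0 in males alone, 1 in BDL alone, 1 in SHAM alone and 1 with numbers 411 to 421 against 400 to 410. With each animal left out the count ran from 1 to 33. Smaller groups are part of these settings, and the cause was not tested. No paired analysis was possible because the labels carry no replicate numbers that tie a BDL animal to a SHAM animal. The treatment interval of ZBTB16 is the widest of the 9. ZBTB16 has the fewest counts of them (41 in its lowest library) and also the largest coefficient of variation (49.1%). The part of either in that width was not tested.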
